A study of Mus musculus with 3 samples.

Results

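A set of 9 genes of class I antigen presentation, its regulators and checkpoint ligands was examined for MYC and POH1-Flag signal in Pan02 cells, a mouse pancreatic ductal adenocarcinoma line. They were chosen by name, by a rule that uses no measured value, though earlier results of these data were known. They are 9 of the 21887 protein-coding genes annotated on the assembled nuclear chromosomes. For each gene, every deposited peak that overlapped the gene in the RefSeq annotation of GRCm38 or the 5 kb on either side was taken. CUT&Tag, which tethers a transposase to an antibody on chromatin so that DNA next to the bound protein is tagged for sequencing, had been run on 3 libraries, with 1 library per group. These were MYC in cells stably expressing POH1-Flag, Flag in the same POH1-Flag cells, and MYC in cells carrying the vector. No Flag library of vector cells was among them, so Flag signal could not be compared with cells without POH1-Flag. POH1 is the deubiquitinase of the proteasome lid, and Flag is the tag on the introduced copy. The labels do not say whether the stable cells are 1 clone or a pool. No group had a replicate, so no test between cell lines was possible, and all intervals cover counting error only.

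Class I molecules carry peptides made by the proteasome to the cell surface, where CD8 T cells read them. B2m encodes the light chain of every class I molecule, Tap1 and Tap2 the paired chains of the pump that brings peptides into the endoplasmic reticulum, and Tapbp tapasin, which holds the empty class I molecule beside that pump. Nlrc5 is a transactivator of class I genes, and Irf1 and Irf2 encode factors that bind interferon response elements. Cd274 encodes PD-L1, the ligand of the T cell receptor PD-1, and Cd47 the "do not eat me" signal read by SIRPα on macrophages. MYC is a transcription factor that binds with MAX to E-box DNA, and in tumours it has been linked to immune evasion.

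The 3 lists held 22647 MYC peaks in POH1-Flag cells, 2936 Flag peaks, and 12175 MYC peaks in vector cells. The reads per kb at the lowest background put the depth at 1.06 for MYC in POH1-Flag cells and 1.05 for Flag, each relative to MYC in vector cells. A peak at the genome-wide background had at least 5 reads at its summit in the POH1-Flag MYC list, 7 in the Flag list and 6 in the vector list. A missing peak thus shows only that the signal stayed under a limit of about this size, which is higher where the local background is higher. Of 10 marker genes each, the acinar list had no MYC peak in either cell line, and the ductal list had 6 genes with one in POH1-Flag cells and 3 in vector cells, with none at Krt19, Krt18, Cftr or Epcam. Macrophage markers had 2 and 3, fibroblast markers 4 and 0, and T cell markers 1 and 0 of the 9 that matched. Among all protein-coding genes, 55.7% had a MYC peak in POH1-Flag cells and 40.5% in vector cells, by the same 5 kb rule. With lists this short, no cell identity is read from these counts. Peaks do not measure expression, and the part of other cells in these results was not tested.

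MYC peaks lay in or near all 9 genes in POH1-Flag cells, whereas 1 of the 9 had a Flag peak and 6 had a MYC peak in vector cells. Over all protein-coding genes the shares were 55.7% for MYC in POH1-Flag cells, 4.29% for Flag and 40.5% for MYC in vector cells. The members without a vector peak in this window were Tap1, Irf1 and Cd274, which is 3 of 9 against 16.3% of all genes. None of the 9 had a MYC peak in vector cells alone, against 1.10% of all genes. With 9 genes these counts are descriptions, and nothing particular to the list is read from them. The median member was 11843 bp long, within a range of 5396 to 107714 bp, against a median of 17169 bp over all genes.

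**Figure D1:**
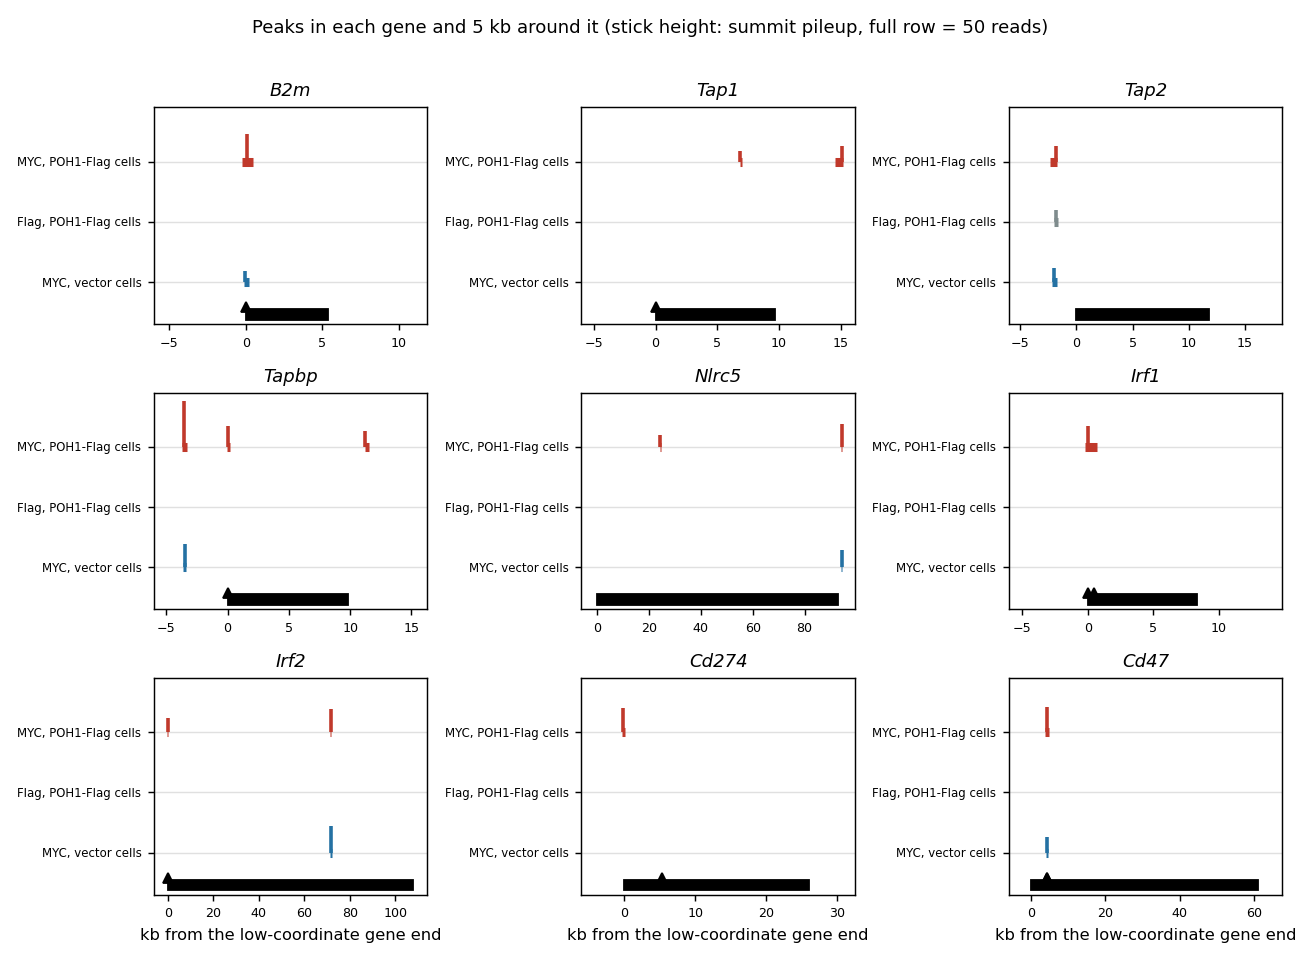
Peaks of each library in the 9 genes and 5 kb around them, by distance in kb from the low-coordinate gene end. Thick marks are peak widths, sticks are summit pileups in reads, black bars are genes and triangles annotated starts; the POH1-Flag MYC row has 13 different peaks, the Flag row 1 and the vector MYC row 6.

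Where the peaks lay differed between the genes. An annotated start with its strand was at hand for B2m, Tap1, Tapbp, Irf1, Irf2, Cd274 and Cd47, all on the plus strand, and Tap2 and Nlrc5 are placed by gene ends alone. A MYC summit lay within 1 kb of the start at 5 of these 7 genes in POH1-Flag cells (B2m, Tapbp, Irf1, Irf2 and Cd47) and at 2 in vector cells (B2m and Cd47). The same held for 43.1% of all genes with an annotated start in POH1-Flag cells and for 30.4% in vector cells. Start peaks in POH1-Flag cells without one in vector cells were seen at 3 members (Tapbp, Irf1 and Irf2), against 13.2% of all genes. Flag had no summit within 1 kb of any of the 7 starts, as against 0.0800% of all genes. The 250 bases before these 5 starts, from RefSeq (GRCm38.p6), are shown because the MYC summits lay at or beside them. Capitals mark, on either strand, interferon response factor elements (GAAA and GAAA with any 2 bases between), GAS elements (TTC and GAA with any 3 bases between), CCAAT boxes, which NF-Y binds, and CACGCG, a variant E-box.
B2m (chr2:122147437-122147686, plus strand): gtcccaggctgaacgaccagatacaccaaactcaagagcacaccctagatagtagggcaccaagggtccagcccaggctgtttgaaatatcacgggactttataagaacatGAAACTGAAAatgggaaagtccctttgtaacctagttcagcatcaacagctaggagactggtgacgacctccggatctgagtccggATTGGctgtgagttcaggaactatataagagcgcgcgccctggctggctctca
Tapbp (chr17:33919228-33919477, plus strand): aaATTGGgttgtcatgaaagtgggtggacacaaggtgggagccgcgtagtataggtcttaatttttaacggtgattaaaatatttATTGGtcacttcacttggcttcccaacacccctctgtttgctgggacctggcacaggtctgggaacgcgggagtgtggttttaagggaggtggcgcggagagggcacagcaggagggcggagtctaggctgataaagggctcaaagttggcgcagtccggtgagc
Irf1 (chr11:53769764-53770013, plus strand): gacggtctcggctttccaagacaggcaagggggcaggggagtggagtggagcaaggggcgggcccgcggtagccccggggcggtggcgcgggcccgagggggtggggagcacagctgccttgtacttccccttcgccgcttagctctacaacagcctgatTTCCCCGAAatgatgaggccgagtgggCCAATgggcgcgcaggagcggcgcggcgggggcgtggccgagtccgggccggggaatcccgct
Irf2 (chr8:46739495-46739744, plus strand): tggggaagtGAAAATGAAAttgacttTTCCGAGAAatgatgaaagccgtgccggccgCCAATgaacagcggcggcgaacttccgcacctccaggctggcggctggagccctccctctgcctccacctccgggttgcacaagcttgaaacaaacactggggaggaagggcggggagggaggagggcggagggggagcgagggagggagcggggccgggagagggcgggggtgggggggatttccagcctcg
Cd47 (chr16:49855404-49855653, plus strand): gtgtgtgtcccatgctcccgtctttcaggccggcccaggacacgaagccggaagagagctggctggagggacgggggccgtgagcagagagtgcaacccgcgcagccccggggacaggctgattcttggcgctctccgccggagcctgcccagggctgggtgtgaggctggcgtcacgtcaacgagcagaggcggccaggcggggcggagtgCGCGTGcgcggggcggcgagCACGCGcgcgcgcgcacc

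None of the 7 member promoters held the canonical E-box CACGTG on either strand of these 250 bases, a sequence found in 6.63% of the 21263 promoters of protein-coding genes. Each member is given by its first annotated start, so the later starts of Irf1 and Cd47 are left out. The 21263 promoters belong to 17492 genes and count several starts of some genes. The Cd47 promoter held 2 copies of CACGCG, on opposite strands, at 38 to 33 and at 18 to 13 bases before the start. CACGCG was in 9.99% of all promoters, in 17.1% of the 8824 with a MYC summit within 1 kb in POH1-Flag cells and in 4.95% of the other promoters. The canonical E-box was in 9.37% and 4.69% of the same groups. An interferon response factor element was present at B2m, 139 to 130 bases before the start, and at Irf2, 241 to 232 bases before it, against 2.96% of all promoters. GAS elements were present at Irf1, 90 to 82 bases before the start, and at Irf2, 224 to 216 bases before it, against 6.58% of all promoters. The CCAAT box, in 35.4% of all promoters, was present at B2m, Tap1, Tapbp, Irf1 and Irf2 and not at Cd274 or Cd47. The GC box GGGCGG, which is not marked above, was present at Tap1, Tapbp, Irf1, Irf2, Cd274 and Cd47 and not at B2m. It was in 42.6% of all promoters, in 65.0% with a MYC summit within 1 kb in POH1-Flag cells and in 26.7% without. All motifs were searched on both strands, and no 2 matches overlapped. Cd47, with 73.2% G or C, and Irf1, with 71.2%, were the richest of the 7 in these bases, while Cd274 had 50.4% and B2m 50.8%. The median was 61.6% where a MYC summit lay within 1 kb in POH1-Flag cells and 50.4% where none did. A match of letters is a description of the window and not a measured site.

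The B2m start had the largest ratio between the cell lines among the member sites found in both MYC lists. It spanned chr2:122147463-122148132 in POH1-Flag cells, with 23 reads at a summit 71 bp inside the gene, and chr2:122147577-122147878 in vector cells, with 9 reads at a summit 15 bp before the start. By the authors' −log10 q it was 12.09 in POH1-Flag cells, above 79.9% of that list, and 2.42 in vector cells, above 4.79% of that list. The peak was 670 bp wide in POH1-Flag cells and 302 bp wide in vector cells. After scaling to each library's lowest background, the pileup was 2.61 times as high in POH1-Flag cells as in vector cells (exact Poisson 95% interval 1.17 to 6.42). B2m (chr2:122147687-122153082) lies within the annotated span of Patl2, whose own start is 38431 bp from the summit. No Flag peak lay in the window.

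The transporter genes had weak MYC signal and none at the annotated Tap1 start. Tap1 (chr17:34187556-34197225) carried a peak of 202 bp inside the gene in POH1-Flag cells, 6880 bp past the start, with 9 reads and a −log10 q of 4.33. Vector cells had no peak there. A second site lay between Psmb8, which encodes an immunoproteasome subunit, and Tap2 (chr17:34204479-34216321). It was the only one of the 9 windows' sites with peaks in all 3 libraries. Its summit had 13 reads for MYC in POH1-Flag cells, 10 reads for Flag and 12 reads for MYC in vector cells, at 1822, 1802 and 1962 bp from the low end of Tap2. The Flag peak had a −log10 q of 3.84. The MYC pileups differed by a ratio of 1.11 (0.466 to 2.66), a difference too small to detect at this depth. The POH1-Flag MYC peak there, 654 bp wide, just reached the Tap1 window, while the vector peak, 399 bp wide, and the Flag peak did not. At this second site Tap1 lacks a vector peak only through the 5 kb limit, and the peak inside the gene is the one that vector cells lacked.

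Tapbp (chr17:33919478-33929290) had the strongest MYC peak of the 9 genes, but it lay at a neighbour. The peak at chr17:33915768-33916161 had 38 reads in POH1-Flag cells against 19 reads in vector cells. Its POH1-Flag summit was 212 bp from the start of Zbtb22, a zinc finger gene, 374 bp from the end of Daxx, and 3514 bp before the start of Tapbp. The authors' −log10 q was 16.94 in POH1-Flag cells and 8.62 in vector cells, above 90.4% and 76.3% of their lists. The scaled ratio was 2.05 (1.15 to 3.76). At the Tapbp start itself, 36 bp inside the gene, POH1-Flag cells had a weak peak of 17 reads with a −log10 q of 2.59, and vector cells had none. A further POH1-Flag peak of 13 reads lay 1409 bp beyond the far end, inside Rgl2 and 805 bp from its start, with no vector peak. These peaks of 17 and 13 reads stood on local backgrounds of 5.07 and 3.31 reads, the highest of the member peaks apart from the 5.09 reads at the Zbtb22 site.

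Among the regulators, Nlrc5 (chr8:94434335-94527272) had no peak at either end within 1 kb. Its shared peak lay beyond the high end, 1498 bp away in POH1-Flag cells and 1335 bp away in vector cells, on the side of Cpne2. It had 19 reads in POH1-Flag cells and 14 reads in vector cells, a ratio of 1.39 (0.660 to 2.99), which is within counting error. A second peak inside the gene, 24382 bp from the low end, had 10 reads in POH1-Flag cells and was not called in vector cells.

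Irf1 (chr11:53770014-53778374) had a broad start peak in POH1-Flag cells alone. It spanned 917 bp at chr11:53769783-53770699, covered both annotated starts, and had 17 reads at a summit 54 bp past the first, with a −log10 q of 6.96. Vector cells had no peak in the window. Just outside it, 6125 bp before the start, both MYC lists had a peak, with 32 reads in POH1-Flag cells and 15 reads in vector cells. Another lay 7639 bp before the start in POH1-Flag cells (19 reads) and 7818 bp before it in vector cells (12 reads). With 10 kb around the gene Irf1 would count as having a MYC peak in both cell lines.

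Irf2 (chr8:46739745-46847458) differed from the others in having its strongest MYC peak deep inside the gene, at a site that was not higher in POH1-Flag cells. This peak, chr8:46811193-46811711 in POH1-Flag cells and chr8:46811209-46811791 in vector cells, lay 71628 and 71651 bp past the start. It had 19 reads in POH1-Flag cells and 22 reads in vector cells, a ratio of 0.884 (0.452 to 1.71). In the vector list it exceeded 91.8% of peaks by −log10 q (13.85), the strongest of the vector peaks at the 9 genes, and in the POH1-Flag list 80.2% (12.16). At the Irf2 start POH1-Flag cells had a peak of 12 reads, 31 bp before the start, with a −log10 q of 2.74. It was not called in vector cells. Irf2 thus had a weak start peak in 1 cell line and a strong internal peak in both.

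The checkpoint ligands differed in position. For Cd274 (chr19:29362107-29388095) the only peak was in POH1-Flag cells, at chr19:29361760-29362168, with 20 reads and a −log10 q of 9.51. It lay 124 bp below the low end of the gene model but 5455 bp before the annotated start used here. The same summit was 112 bp from an annotated start of Plgrkt, a gene on the opposite strand, so the peak cannot be assigned to Cd274 rather than Plgrkt. No library had a peak within 1 kb of that Cd274 start. Cd47 (chr16:49851328-49912503) had start peaks in both cell lines, of 1057 bp in POH1-Flag cells and 693 bp in vector cells. The summits lay 102 and 131 bp before the nearest start, with 21 reads in POH1-Flag cells and 13 reads in vector cells. The ratio was 1.65 (0.790 to 3.59), so the higher value in POH1-Flag cells was within counting error.

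**Figure D2:**
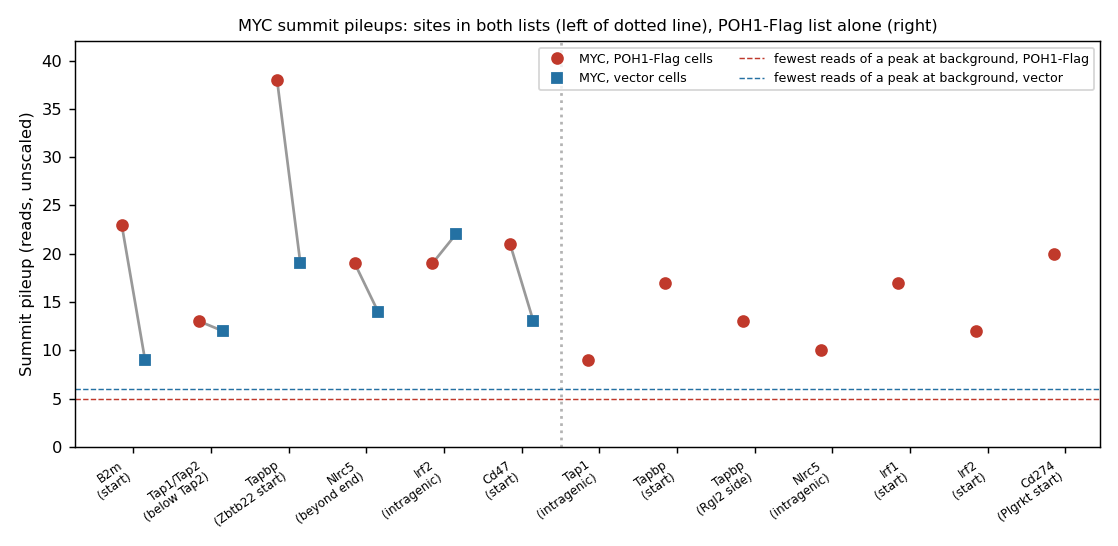
Summit pileups in reads, unscaled, at the 6 member sites found in both MYC lists and at the 7 found in the POH1-Flag list alone, 1 library per group. Paired points join the same site; B2m has 23 and 9 reads, Irf2 is the pair with the lower value in POH1-Flag cells (19 and 22), and dashed lines mark the fewest reads of a peak at background, 5 and 6.

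Across the 6 shared sites the POH1-Flag over vector ratio was above 1 at 5 and below 1 at the Irf2 site. The median log2 ratio was 0.60, against 0.67 over the 7915 shared MYC sites in or within 5 kb of any protein-coding gene, of which 94.7% were higher in POH1-Flag cells. A ratio above 1.5 was seen at 3 of the 6 sites (B2m, Tapbp and Cd47), against 59.2% of all such sites. The interval lay above 1 at B2m and Tapbp, as it did at 1744 of the 7915 sites near genes. B2m had a higher ratio than 97.5% of the sites near genes and Tapbp than 82.7%. The site below Tap2 exceeded 9.5% of them and the Irf2 site 2.89%. The Tap2 site was the only one of the 6 to meet a Flag peak. Shared sites near genes that met one had a median log2 ratio of 0.03 (332 sites), and those without had 0.69 (7583 sites).

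**Figure D3:**
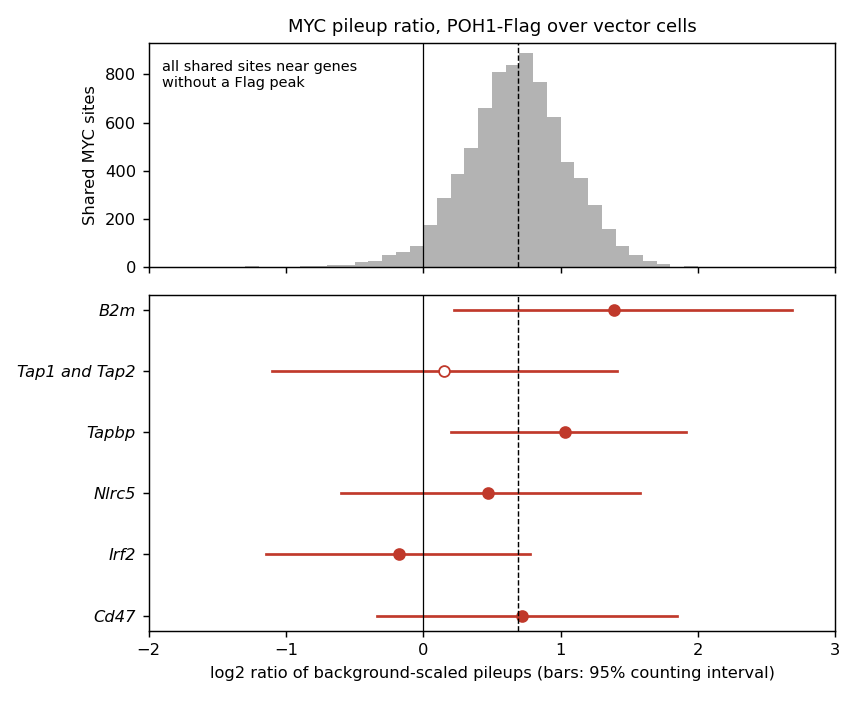
Distribution of log2 ratios of MYC summit pileups, POH1-Flag over vector cells, at 7583 shared sites near genes without a Flag peak (top, count of sites), and the 6 member sites with exact Poisson 95% intervals (bottom). The dashed line is the median of 0.69; the open circle is the site that meets a Flag peak, and the intervals of B2m and Tapbp lie above 0.

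The local background, which the peak caller took from reads in 10 kb around each summit, was also higher in POH1-Flag cells at most of these sites. It corresponds to 119 reads in POH1-Flag cells and 70 in vector cells at B2m, 252 and 101 at Tapbp, 155 and 95 at Nlrc5, and 115 and 64 at Cd47. At the site below Tap2 there were 97 and 73 reads, and at Irf2 72 and 75. Scaled for depth, the window ratio, POH1-Flag over vector, was 1.60 (1.18 to 2.19) at B2m, 2.35 (1.86 to 3.0) at Tapbp, 1.54 (1.19 to 2.01) at Nlrc5 and 1.7 (1.24 to 2.34) at Cd47. It was 1.25 (0.916 to 1.72) below Tap2 and 0.906 (0.646 to 1.27) at Irf2. Intervals above 1 at 4 of the 6 sites compare with 78.7% of 7780 shared sites near genes, whose median ratio was 1.56. The window holds the peak itself and any neighbouring peak, and at Tapbp it holds the start peak and the Zbtb22 site together. When each pileup was divided by its own local background, the log2 ratio stayed above 0 at B2m alone (0.70), while Tapbp came to −0.20 and Cd47 to −0.04. The B2m value rests on the same 23 and 9 reads, and no counting interval is given for it under this scaling. Over all 7915 sites near genes the median was then 0.04, and 55.5% of them, in place of 94.7%, were higher in POH1-Flag cells.

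**Figure D4:**
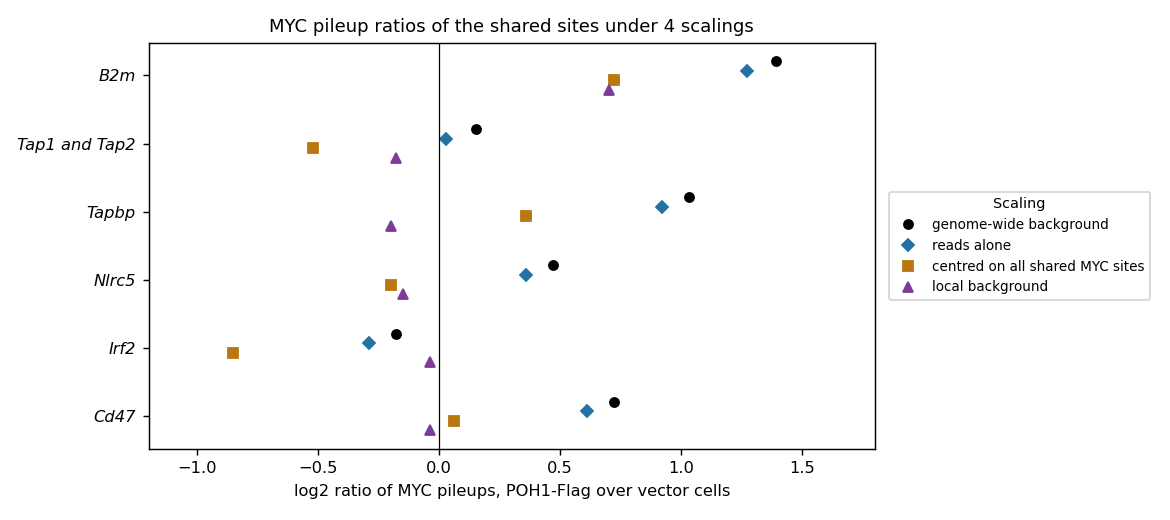
Log2 ratios of MYC summit pileups, POH1-Flag over vector cells, at the 6 shared sites under 4 ways of scaling, 1 library per group. B2m is above 0 under each of them (0.70 to 1.39) and Irf2 below 0 under each (−0.85 to −0.04), whereas the sign at the other sites depends on the scaling. The 4 values of a site rest on the same summit reads, so a common sign is not repeated evidence. Counting intervals are given for the scaling by genome-wide background alone, where that of Irf2 includes a ratio of 1.

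Related genes were described through 11 lists with 147 entries, of which 144 matched the annotation, with the same 5 kb rule. The genes named from the lists were mostly those with the largest −log10 q in POH1-Flag MYC. That choice favours high POH1-Flag reads, so the read pairs below, which are unscaled, do not measure a difference between cell lines. Of the 144, 90 had a MYC peak in POH1-Flag cells (62.5%), 2 had a Flag peak (1.39%) and 69 had a MYC peak in vector cells (47.9%). Over all protein-coding genes these shares were 55.7%, 4.29% and 40.5%. The 16 class I heavy chain genes had a MYC peak at 4 genes in POH1-Flag cells and 2 in vector cells. H2-D1 had 19 and 15 reads at a summit 176 bp from its start, and H2-T24 had 19 and 11 reads at a summit 1929 bp outside the gene. H2-K1, which encodes the other classical chain, had 16 reads in POH1-Flag cells at a summit 1 bp from its start and no peak in vector cells, and the non-classical H2-M3 had 6 reads and none. Counts at these near-identical paralogs depend on how reads were placed among copies, and that step is not given in the sources used here.

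Peptide loading and trimming genes had a MYC peak at 9 of 10 genes in each cell line. Of all genes, 55.7% had one in POH1-Flag cells and 40.5% in vector cells. Tpp2, a peptide-trimming protease gene, had 45 and 16 reads in POH1-Flag and vector cells, and Calr, the gene of the chaperone calreticulin, 48 and 31. Pdia3, which encodes the ERp57 partner of tapasin, had 44 and 30 reads and Canx, the calnexin gene, 35 and 21. All 11 shared sites of the list were higher in POH1-Flag cells, with a median log2 ratio of 0.69. Over all shared sites near genes, 94.7% were higher and the median was 0.67. The immunoproteasome list had peaks at 5 of 7 genes in each cell line, none of them at Psmb9, which faces Tap1. Its strongest were the activator genes Psme2 (42 and 21 reads) and Psme3 (39 and 25 reads), then the assembly factor gene Pomp (20 and 11 reads). Psmb8 counted through the site below Tap2 in both cell lines and, in POH1-Flag cells, also through the peak inside Tap1, 3759 bp from the Psmb8 start.

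All 14 genes of interferon receptors and JAK-STAT signalling had a MYC peak in POH1-Flag cells, and 12 had one in vector cells. For this list and the next ones, the shares over all genes were 55.7% and 40.5%. The strongest by −log10 q in POH1-Flag cells were Stat3 (36 and 21 reads), Ptpn2, a phosphatase gene that restrains the pathway (30 and 23 reads), the kinase gene Jak2 (28 and 15 reads) and the feedback inhibitor gene Socs3 (30 and 15 reads). The shared sites of this JAK-STAT list were higher in POH1-Flag cells at 9 of 11, with a median log2 ratio of 0.81. Over all shared sites near genes, 94.7% were higher and the median was 0.67. The other 7 IRF genes had peaks at 3 in POH1-Flag cells and 2 in vector cells, and Irf9 had one in vector cells alone. Irf3, a sensor-activated factor gene, had 36 and 26 reads, and Irf7 had 10 reads in POH1-Flag cells alone. The factors that assemble on class I and class II promoters had a peak at 11 of 12 genes in each cell line. Among them were Relb (51 and 32 reads), Nfya of NF-Y (38 and 25 reads) and Creb1 (32 and 20 reads). Rfxank of the RFX complex had 33 and 19 reads at a summit 1173 bp outside the gene and 9564 bp from its start. The member without a peak was Ciita, the class II transactivator gene. Class II presentation genes had a peak at 1 of 9 in each cell line, H2-DMa (51 and 31 reads). Its summit lay 2785 bp from the nearest gene end and 354 bp from an annotated start. Other genes at this peak are not given here, so it is not assigned to H2-DMa alone.

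Checkpoint ligands other than Cd274 and Cd47 had MYC peaks at 12 of 23 genes in POH1-Flag cells and 6 in vector cells. Over all genes the shares were 55.7% and 40.5%. The strongest were Nectin2 (47 and 22 reads) and Pvr (27 and 23 reads), both ligands of TIGIT, the costimulatory gene Cd80 and Cd24a (24 and 18 reads). Cd80 had 25 and 11 reads at a summit 4678 bp outside the gene and 6181 bp from its start. Pdcd1lg2, which encodes PD-L2, had a peak in POH1-Flag cells alone. Genes that act on PD-L1 or CD47 protein had peaks at 15 of 16 in POH1-Flag cells and 13 in vector cells. The strongest were Hip1r (87 and 53 reads), Usp22 (49 and 32 reads), Stt3a (38 and 19 reads) and Gsk3b (40 and 20 reads). The Hip1r summit lay 3982 bp outside the gene and 33569 bp from its start. All 17 shared sites of this list were higher in POH1-Flag cells, with a median log2 ratio of 0.75. Over all shared sites near genes, 94.7% were higher and the median was 0.67.

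Interferon-stimulated genes had a MYC peak at 8 of 20 (40%) in POH1-Flag cells and 3 of 20 (15%) in vector cells, beside 55.7% and 40.5% of all genes. Oasl1 had 44 and 38 reads at a site with a Flag peak. Ifi35 (21 reads) and Usp18 (13 reads, 1697 bp outside the gene) had a peak in POH1-Flag cells and none in vector cells. The strongest POH1-Flag peak of Isg15 (18 reads, 2529 bp outside the gene) met no vector peak. Vector cells did have a MYC peak elsewhere in the Isg15 window. Nucleic acid sensing genes had a peak at 8 of 10 in POH1-Flag cells and 5 in vector cells, and Ikbke had one in vector cells alone. They included Trex1, a DNA exonuclease gene (31 and 17 reads), Mavs (21 and 12 reads) and the kinase gene Tbk1 (15 and 13 reads). Sting1 had 24 reads in POH1-Flag cells at a summit 3053 bp outside the gene, with no vector peak in its window.

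**Figure D5:**
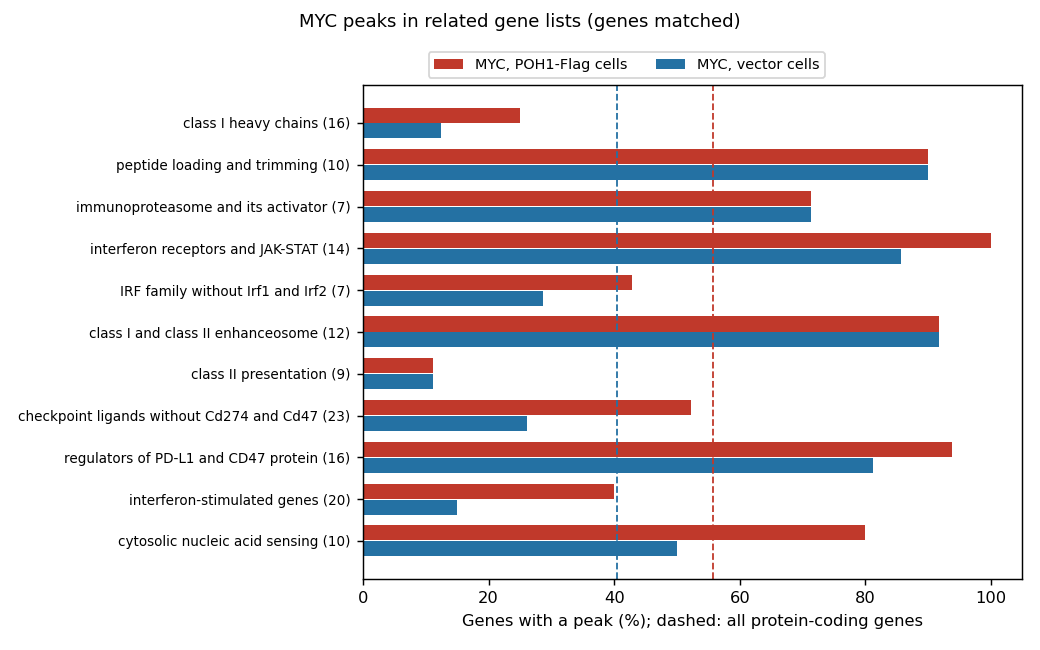
Share of genes in each of 11 related lists with a MYC peak in the gene or 5 kb around it (percent), POH1-Flag cells above vector cells, with the number of matched genes in brackets. Dashed lines are all protein-coding genes, 55.7% in POH1-Flag cells and 40.5% in vector cells; class I heavy chains (25% and 12.5%) and class II genes (11.1% in each) lie below them.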

How the data were processed

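CUT&Tag peak lists of 3 libraries were analysed, each called on its own library. MACS2 2.2.7.1, BWA 0.7.17-r1188, Trim Galore 0.6.6 and FastQC 0.11.9 appear in the submitters' processing notes, with builds GRCm38 and mm10. Neither a control library nor duplicate handling is given in the sources used here. The deposited fold is a linear ratio of summit to background, the deposited −log10 p and −log10 q belong to the summit, and the deposited score restates −log10 q on a scale 10 times larger. Ranks by −log10 q were taken only within a list. Values of −log10 q printed for both cell lines, and counts at a limit of −log10 q or fold, are not adjusted for depth between libraries.

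Whole pileups and their backgrounds were recovered by inverting the peak caller's fold (1 added to both) and Poisson p-value, and 100% came out whole within 0.01 of a read step in each list. Every background above the genome-wide background and equal to fewer than 300 reads lay on whole reads of a 10 kb window. Ratios use exact conditional Poisson 95% intervals, which kept PCR duplicates would make too narrow. Shared sites were each other's strongest overlapping peak (at least 1 bp). Genes, starts and promoters came from RefSeq GRCm38.p6, and 144 of 147 list entries matched by symbol. Python 3.11.15, NumPy 2.4.6, pandas 2.3.3 and SciPy 1.17.1 were used, and the steps were tested on simulated data.

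The genes and lists were chosen with earlier results of these data known. All 9 members were named, the 4 genes with the largest −log10 q in POH1-Flag MYC from each list, and genes sharing a member's peak; 1 gene that this rule names is not reported here. Pdcd1lg2, Psmb9, Ciita, Irf9 and Ikbke were named after their values were seen. Strand was taken from the promoter table, which has no entry for Tap2 and Nlrc5. Alternatives were stricter limits, other windows, overlap rules and pileup scalings. Scaling by local background was added after seeing the data.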

Additional observations from a re-analysis of the deposited data

How the results depend on the processing

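No paired analysis was possible because each group has 1 library, and no replicate could be left out. MYC peaks in POH1-Flag cells were at 4 of the 9 members once −log10 q had to reach 10. In vector cells they were at 3 with a limit of 5, at 1 with a limit of 10, and at 3 with 1 kb around the gene. The Flag count of 1 became 0 at both limits and with 1 kb, and 2 with 10 kb. Members with a MYC peak in POH1-Flag cells alone numbered 5 when fold had to reach 5 and with 1 kb, and 1 (Cd274) with 10 kb. Start peaks numbered 3 in POH1-Flag cells and 1 in vector cells when −log10 q or fold had to reach 5, and 2 and 0 when −log10 q had to reach 10. Shares over all genes at these other limits and windows are not given here. The shifts in these counts are therefore not read as particular to the 9 genes. The median log2 ratio of the 6 shared sites turned to −0.07 when centred on all shared MYC sites without a Flag peak, where the site of Tap1 and Tap2 came to −0.52 and Nlrc5 to −0.20. Divided by local background, an alternative added after seeing the data, the median was −0.09, with Cd47 at −0.04, Tapbp at −0.20, Tap1 and Tap2 at −0.18 and Nlrc5 at −0.15; that background holds the peak's own reads. The cause of the other changes was not tested. The other 53 alternative values kept their direction and stayed within 1.5 times the count, within a site's counting interval or, for the median, within the range of the sites. B2m gave no value under the stricter overlap (50% of both peaks), the site of Tap1 and Tap2 none without sites that meet a Flag peak, and B2m, Nlrc5 and the site of Tap1 and Tap2 gave none when −log10 q had to reach 5 in both lists. Peaks of 9 to 38 reads leave wide counting error at any one site.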
